A study of Rattus norvegicus with 34 samples.

Results

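A list of 56 cell cycle and DNA replication genes was examined in the left ventricle (LV) and in peripheral blood mononuclear cells (PBMCs) of rats after myocardial infarction (MI). The list runs through the cycle in 6 groups by role: the start of the cycle in G1 and early S phase (8 genes), replication origins and the replicative helicase (9), nucleotide supply, the replication fork and chromatin copying (8), mitotic cyclins, kinases and regulators (10), the spindle checkpoint and anaphase (10), and the spindle and cytokinesis (11). Members were found by gene symbol in the annotation of the array, and 50 of the 56 had a transcript cluster (the set of probes that measures one gene) assigned to that symbol alone. These 50 genes took 53 of the 29214 transcript clusters measured, since Ccnb2, Rrm1 and Rrm2 had 2 each, and for these the cluster with the highest mean in each tissue was used. Mcm3, Mcm4, Mki67, Cenpe, Cenpf and Anln were not analysed here.

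Male Wistar rats received an MI through a ligature on the proximal left coronary artery, and in sham-operated rats the suture was placed but not tied. Tissue was taken 2 months after surgery and hybridised to Affymetrix Rat Gene 1.0 ST arrays. The 23 LV arrays came from 6 sham-operated rats, 6 rats with small MI (S-MI), 6 with moderate MI (M-MI) and 5 with large MI (L-MI), and the 11 PBMC arrays came from 5 L-MI and 6 sham-operated rats. In MI rats the LV sample was the part that looked morphologically unaffected, whereas in sham-operated rats it was the whole LV, so injury and sampled region cannot be told apart. L-MI replicate 1 is described in the deposited records of both tissues as compensated injury, against its title and its size label, and it was kept as L-MI. Values are normalised log2 intensities, the base taken as 2 because the sources give none. The tissues were probably normalised apart, which the sources do not state, so no level was compared between them. Within groups, arrays correlated at 0.988 to 0.996 over all clusters, and no pair of arrays held identical values. Precision is limited by the number of arrays. The limma p-values weigh a group difference against the spread between rats, pooled over the groups fitted together.

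A cell that divides passes through G1, in which D-type cyclins release the E2F factors from the retinoblastoma protein, then S phase, in which the Mcm helicase opens the DNA and the fork copies it, and finally mitosis, in which kinases, motor proteins and a checkpoint pull the copied chromosomes apart. Most of these genes are transcribed only while a cell is cycling, replication genes before mitotic ones, which is why their transcripts are widely read as markers of proliferation. Cardiomyocytes of the adult heart have mostly left the cycle, while fibroblasts, endothelial cells and macrophages can divide after injury, and few of the lymphocytes and monocytes in resting blood are dividing. In a bulk sample a change in the number of cycling cells and a change in transcript per cell cannot be told apart.

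In the LV of L-MI rats, Ccnd1, which encodes cyclin D1, was higher than in sham-operated rats and was the single member that passed both thresholds of this comparison (a fold change of at least 1.3 and an adjusted p of at most 0.05, by limma with Benjamini-Hochberg adjustment over all clusters), while 0 of 50 members were lower. The thresholds were passed by 3.22% of all clusters, 2.08% higher and 1.14% lower, so the share of members, 1 of 50, lay near the background. Of the 50 members, 38 had a mean above that of sham-operated rats, against 48.0% of all clusters, and the median log2 fold change of the members was 0.10, against -0.01 over all clusters. Up to an unadjusted p of 0.05 in limma, 11 members were higher and 1 was lower, where 9.80% and 11.7% of all clusters were. Of the 50 members, 14 were among the dimmest 30% of clusters in the LV, and all 50 stayed in the counts. Ccne1, Kif11, Kif2c, Hmmr, Melk and Ttk, named below, were among these dim members.

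Ccnd1 had a log2 level of 10.00, 9.68, 10.00, 9.98 and 10.20 in L-MI replicates 1 to 5, and in the 6 sham-operated rats its lowest, median and highest levels were 9.38, 9.46 and 9.70. Only L-MI replicate 2 lay within the sham range. The means were 9.97 ± 0.18 in L-MI rats (SD, n = 5) and 9.48 ± 0.12 in sham-operated rats (SD, n = 6), a log2 fold change of 0.50 ± 0.096 (SE) or 1.41-fold (limma, adjusted p = 0.00129; two-sided exact permutation p = 0.00649). Ccnd2, which encodes cyclin D2, had levels of 12.13, 12.12, 12.18, 12.19 and 12.40 in L-MI rats, against 11.80, 11.90 and 12.02 (lowest, median and highest) in sham-operated rats. All 5 L-MI rats thus lay above all 6 sham-operated rats, the same being true of 3.10% of all clusters. Its log2 fold change of 0.30 ± 0.091 (SE) had an adjusted p of 0.0346 by limma, and its 1.23-fold difference was under the fold threshold.

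E2f1, the transcription factor that opens S phase, had levels of 6.05, 6.17, 5.66, 5.82 and 6.46 in L-MI rats, against 5.39, 5.69 and 5.93 (lowest, median and highest) in sham-operated rats. L-MI replicates 1, 2 and 5 lay above the sham range and replicates 3 and 4 within it. Its log2 fold change was 0.35 ± 0.12 (SE), and it did not pass (limma, adjusted p = 0.0793). Ccne1, which encodes cyclin E1, the partner of Cdk2 at the entry into S phase, had levels of 5.24, 4.93, 4.99, 4.90 and 5.64 in L-MI rats and 4.60, 4.89 and 4.94 (lowest, median and highest) in sham-operated rats, a log2 fold change of 0.30 ± 0.11 (SE; limma, adjusted p = 0.1001). L-MI replicates 1, 3 and 5 were above the sham range. Cdkn1a, the inhibitor p21 that holds cells in G1, overlapped widely, at 9.55, 10.01, 9.75, 10.28 and 9.80 in L-MI rats and 9.27, 9.74 and 10.15 (lowest, median and highest) in sham-operated rats (log2 fold change 0.15, 95% interval -0.21 to 0.50; limma, adjusted p = 0.699). Over the 8 genes of this group, 7 had a higher mean in L-MI rats and the median log2 fold change was 0.22. The mean level of the 8 genes was 8.36, 8.31, 8.24, 8.30 and 8.60 in L-MI replicates 1 to 5, and 8.13 to 8.19 in the 6 sham-operated rats, without overlap. That mean includes Ccnd1 and Ccnd2, and no share over all clusters was computed for it. It reached 8.31 in S-MI rats, above L-MI replicates 3 and 4, and 8.30 in M-MI rats, above L-MI replicate 3. The gene with a lower mean in L-MI rats was Cdk2, the kinase of the cyclin E and cyclin A complexes, whose log2 fold change was -0.11 and which was named after its values were seen.

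**Figure D1:**
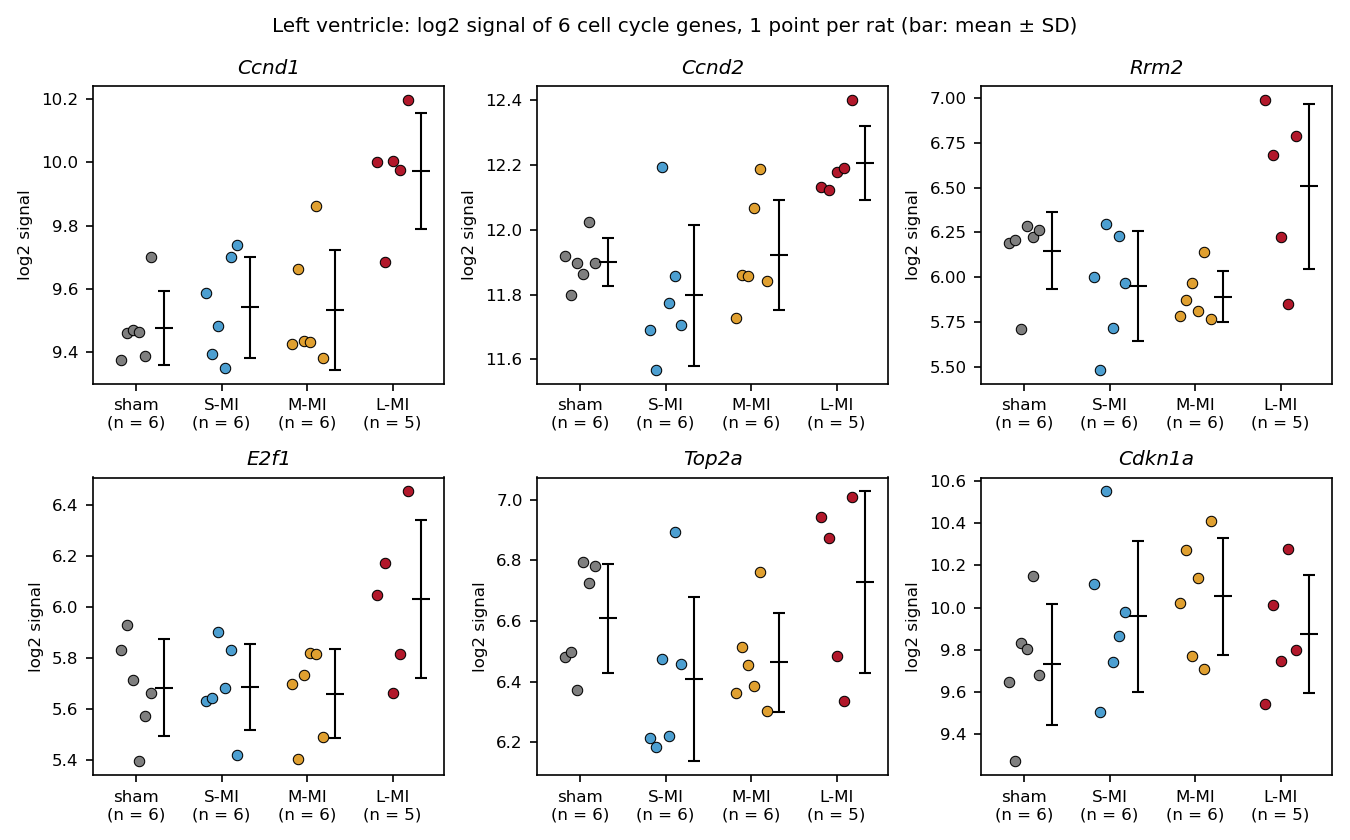
Log2 intensity of Ccnd1, Ccnd2, Rrm2, E2f1, Top2a and Cdkn1a in the LV of sham-operated, S-MI, M-MI and L-MI rats. Each point is a rat, and the bars give the mean and SD of the group (n = 6, 6, 6 and 5); all L-MI points of Ccnd2 lie above all sham points, 4 of 5 for Ccnd1, while those of Top2a and Cdkn1a overlap them.

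The replication genes had smaller median log2 fold changes, though the role groups were not compared by a test. Of the 7 measured genes of origins and helicase, 4 had a higher mean in L-MI rats, with a median log2 fold change of 0.05. The mean level of the 7 genes was 6.62, 6.46 and 6.60 in L-MI replicates 1, 2 and 5, above the sham range of 6.32 to 6.45. It was 6.21 in replicates 3 and 4, under that range. Mcm5, a subunit of the Mcm helicase, had levels of 6.78, 6.61, 6.29, 6.33 and 6.74 in L-MI rats, against 6.25, 6.34 and 6.46 (lowest, median and highest) in sham-operated rats, a log2 fold change of 0.21 ± 0.092 (SE; limma, adjusted p = 0.174). Mcm6, another subunit, had levels of 6.59, 6.45, 6.15, 6.09 and 6.68 in L-MI rats, against 6.10, 6.24 and 6.28 (lowest, median and highest) in sham-operated rats, with an adjusted p of 0.268 by limma. For both subunits L-MI replicates 1, 2 and 5 were above all sham-operated rats, whereas replicates 3 and 4 were not.

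Of the 7 measured genes of nucleotide supply and the fork, 4 also had a higher mean, with a median of 0.03. Rrm2, the regulated subunit of ribonucleotide reductase, which makes the building blocks of DNA, had levels of 6.99, 6.68, 6.22, 5.85 and 6.79 in L-MI rats, against 5.71, 6.22 and 6.29 (lowest, median and highest) in sham-operated rats. Replicate 4 lay within the sham range and replicate 3 just under its top, and the SD over L-MI rats was 0.46. Its log2 fold change of 0.36 ± 0.17 (SE) did not pass (limma, adjusted p = 0.212). Tyms, thymidylate synthase, had levels of 8.27, 8.36, 8.17, 7.83 and 8.11 in L-MI rats and 8.20, 8.24 and 8.43 (lowest, median and highest) in sham-operated rats (log2 fold change -0.14; limma, adjusted p = 0.361). Top2a, the topoisomerase that untangles copied DNA and is abundant in G2 and mitosis, had levels of 6.94, 6.87, 6.49, 6.34 and 7.01 in L-MI rats and 6.37, 6.61 and 6.80 (lowest, median and highest) in sham-operated rats. Its log2 fold change was 0.12 (95% interval -0.15 to 0.39; limma, adjusted p = 0.672). Pcna, the sliding clamp of the fork, was above the sham range in L-MI replicates 1 and 5 and under it in replicate 4, with levels of 8.49, 8.44, 8.40, 8.20 and 8.60 in L-MI rats and 8.28, 8.42 and 8.46 (lowest, median and highest) in sham-operated rats (log2 fold change 0.03, 95% interval -0.11 to 0.17; limma, adjusted p = 0.844).

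Of the 28 measured genes in the 3 mitotic groups, 23 had a higher mean in L-MI rats, with a median log2 fold change of 0.11 and 0 genes past the thresholds. By group, 9 of 10 cyclins, kinases and regulators (median 0.11), 7 of 8 checkpoint genes (0.09) and 7 of 10 spindle genes (0.09) were on that side. Cdkn3, a phosphatase that acts on Cdk1 and Cdk2, had the largest log2 fold change of the 3 groups, 0.38 ± 0.16 (SE; limma, adjusted p = 0.143), with levels of 6.13, 5.80, 5.65, 5.43 and 6.04 in L-MI rats and 5.05, 5.45 and 5.69 (lowest, median and highest) in sham-operated rats. L-MI replicates 1, 2 and 5 lay above the sham range. Kif11, the motor that separates the spindle poles, showed the same 3 rats above the sham range, with levels of 5.94, 5.82, 5.31, 5.26 and 5.75 in L-MI rats and 5.20, 5.34 and 5.55 (lowest, median and highest) in sham-operated rats (log2 fold change 0.27 ± 0.12 SE; limma, adjusted p = 0.181).

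Kif2c, a kinesin that takes microtubules apart at the centromere, was the other member whose groups did not overlap, though by a small step. Its levels were 5.33, 5.32, 5.30, 5.33 and 5.43 in L-MI rats, against 5.11, 5.25 and 5.28 (lowest, median and highest) in sham-operated rats, a log2 fold change of 0.13 (limma, adjusted p = 0.217). Foxm1, the transcription factor of mitotic genes, had levels of 6.92, 6.86, 6.75, 6.63 and 6.88 in L-MI rats and 6.42, 6.63 and 6.87 (lowest, median and highest) in sham-operated rats (log2 fold change 0.17; limma, adjusted p = 0.214). Birc5 (survivin) and Aurkb, which work together in the chromosomal passenger complex, had log2 fold changes of 0.12 and 0.20 with adjusted p of 0.216 and 0.247 by limma. Birc5 had levels of 5.89, 5.86, 5.88, 5.92 and 5.78 in L-MI rats and 5.57, 5.76 and 5.86 (lowest, median and highest) in sham-operated rats, and Aurkb had 6.70, 6.64, 6.43, 6.58 and 6.99 in L-MI rats and 6.37, 6.43 and 6.66 in sham-operated rats. In both genes the ranges overlapped.

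**Figure D2:**
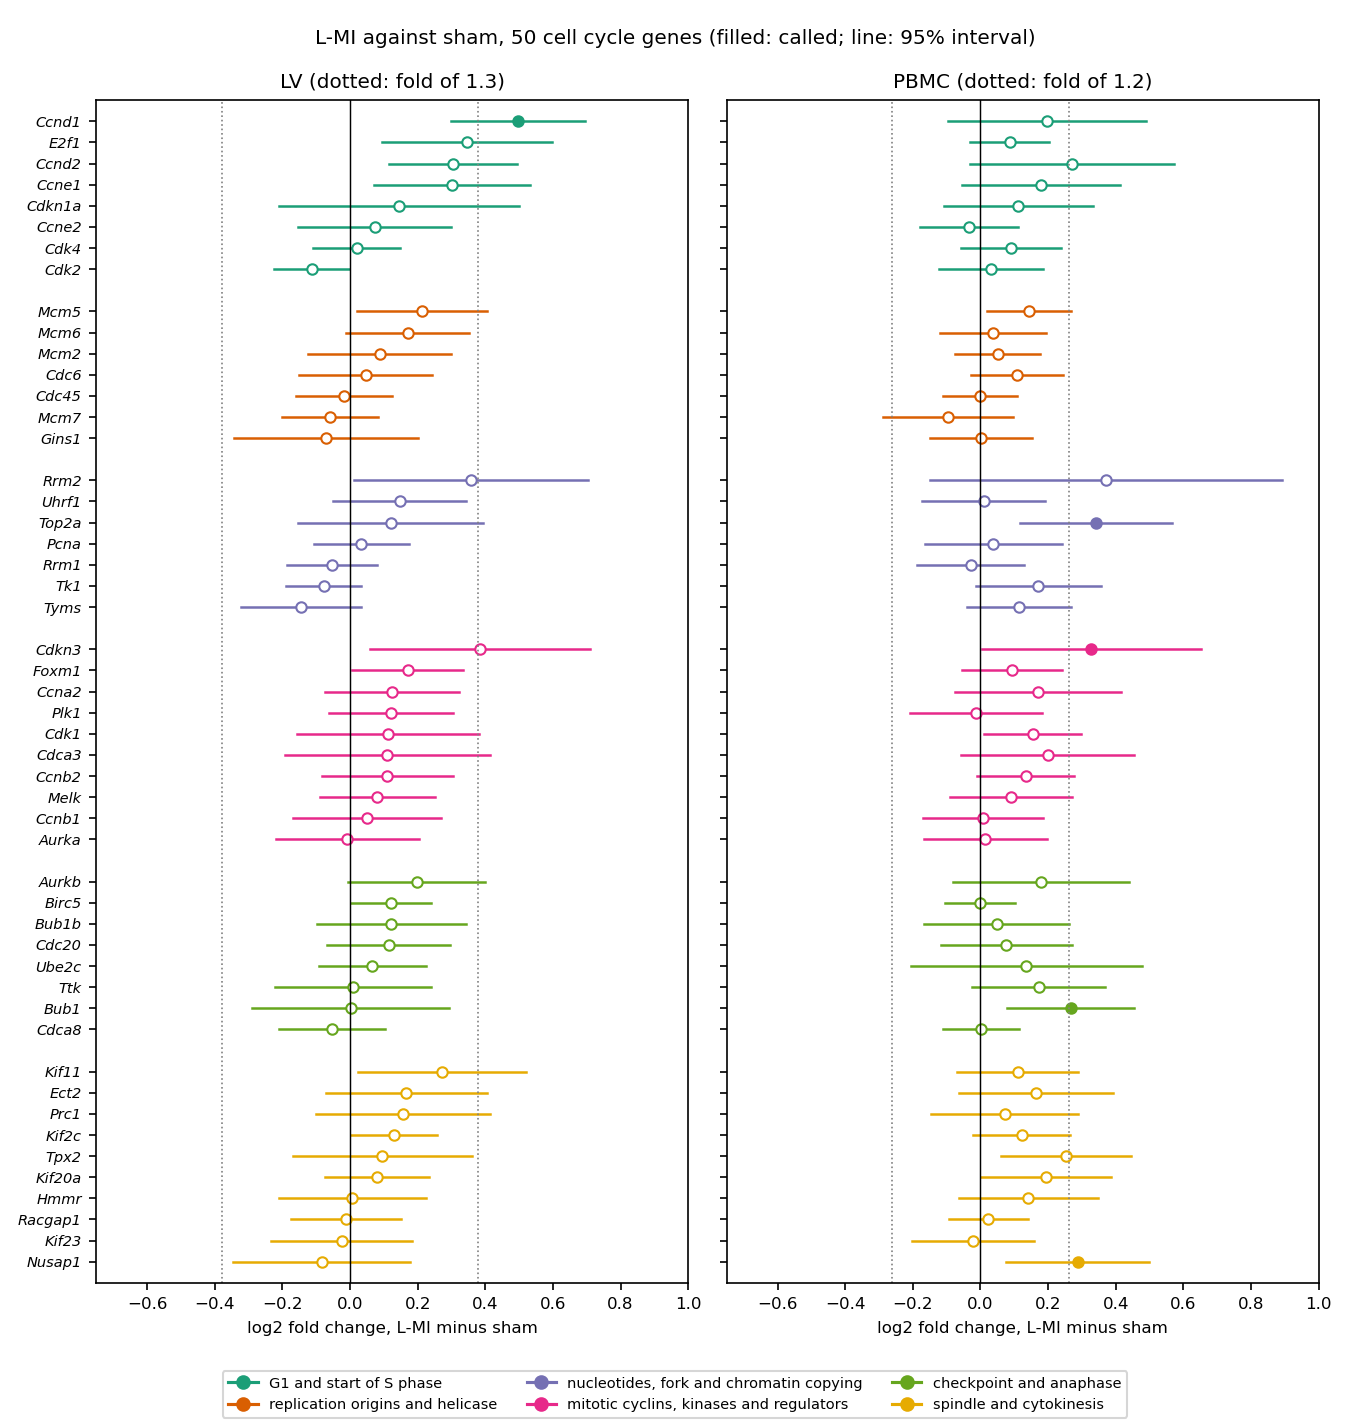
Log2 fold change of the 50 measured members, L-MI minus sham, in LV (left) and PBMCs (right), ordered by role. Bars are 95% intervals from limma, filled points passed the thresholds of their tissue and dotted lines mark the fold thresholds; Ccnd1 is filled in LV, and Top2a, Nusap1, Bub1 and Cdkn3 are filled in PBMCs.

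The L-MI rats differed among themselves more than the rats of the other groups. The mean level of the 50 members was 6.67, 6.55, 6.38, 6.31 and 6.70 in L-MI replicates 1 to 5 (SD 0.17), whereas the 6 sham-operated rats lay between 6.36 and 6.47 (SD 0.042), and the SD was 0.099 in S-MI and 0.053 in M-MI rats. For 32 of the 50 members, replicates 1, 2 and 5 held the 3 highest L-MI values, an order found in 10.5% of all clusters. In these 3 rats 45, 38 and 43 of the 50 members were above the sham median, against 17 in replicate 3 and 9 in replicate 4, while for all clusters the share above it was 45.1% to 51.4% in each of the 5 rats. The 28 mitotic genes had the same order, with means of 5.98, 5.85 and 5.98 in replicates 1, 2 and 5 and 5.67 and 5.57 in replicates 3 and 4, against 5.64 to 5.78 in sham-operated rats. This order was noticed in the data and carries no test. Left out one at a time, the L-MI rats moved the number of members with a higher mean between 33 (without replicate 5) and 44 (without replicate 4), and the median log2 fold change of the members between 0.05 and 0.15.

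**Figure D3:**
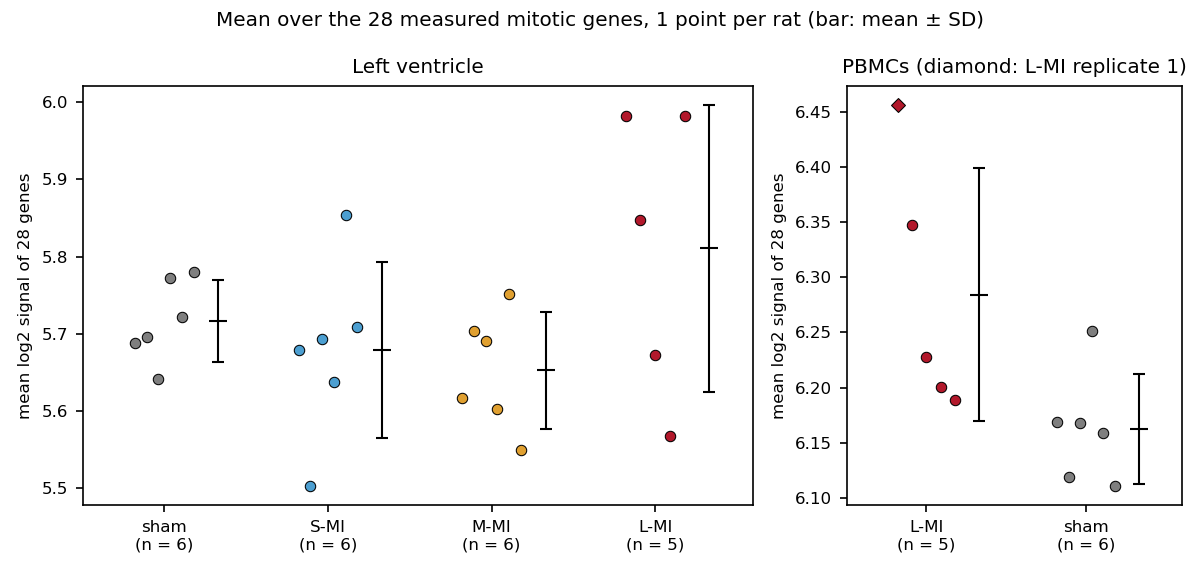
Mean log2 intensity of the 28 measured mitotic genes in each rat, in LV (sham-operated, S-MI, M-MI and L-MI) and in PBMCs (L-MI and sham-operated). Each point is a rat; in the LV, L-MI replicates 1, 2 and 5 lie above every sham-operated rat and replicate 4 below every one of them.

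Smaller infarcts gave no member past the thresholds. In S-MI rats 0 of 50 members passed against sham, as did 0% of all clusters, 17 of 50 had a higher mean (51.1% of all clusters) and the median log2 fold change was -0.03 (smallest adjusted p over all clusters 0.113 by limma). In M-MI rats 0 of 50 passed, again with 0% of all clusters, 12 of 50 had a higher mean (48.7% of all clusters) and the median was -0.06 (smallest adjusted p over all clusters 0.293 by limma). Up to an unadjusted p of 0.05 in limma, 0 members were higher and 1 lower in S-MI rats (3.56% and 2.77% of all clusters), and 0 higher and 4 lower in M-MI rats (3.21% and 3.81%). These comparisons and that of L-MI rats share the 6 sham arrays and are not independent of each other.

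In S-MI rats the smallest p among members was that of Ttk, the Mps1 kinase of the spindle checkpoint, which was the dimmest member in the LV. Its lowest, median and highest levels were 3.87, 4.17 and 4.21 in S-MI rats, against 4.09, 4.36 and 4.77 in sham-operated rats (log2 fold change -0.30 ± 0.11 SE; limma, adjusted p = 0.670). Melk, a mitotic kinase, and Hmmr, a protein of the spindle poles, had log2 fold changes of -0.14 and -0.18 with adjusted p of 0.822 and 0.826 by limma. All 7 measured genes of origins and helicase had a lower mean in S-MI than in sham-operated rats, with a median log2 fold change of -0.09 and 0 genes past the test.

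The members nearest to a difference in M-MI rats were Tk1, Nusap1 and Hmmr, all with lower means. Nusap1, a protein that bundles spindle microtubules, had lowest, median and highest levels of 6.19, 6.44 and 6.58 in M-MI rats, against 6.62, 6.67 and 6.92 in sham-operated rats (log2 fold change -0.28 ± 0.12 SE; limma, adjusted p = 0.694). Hmmr had 4.87, 5.16 and 5.30 in M-MI rats, against 5.32, 5.33 and 5.43 in sham-operated rats (log2 fold change -0.23 ± 0.10 SE; limma, adjusted p = 0.694). In both genes all M-MI rats lay under all sham-operated rats, as they did in 0.291% of all clusters, and neither passed the adjusted test. Tk1, the thymidine kinase that salvages thymidine for DNA synthesis, had 5.81, 5.88 and 5.98 in M-MI rats, against 5.89, 6.09 and 6.11 in sham-operated rats (log2 fold change -0.16 ± 0.051 SE; limma, adjusted p = 0.689), and these ranges overlapped. Ccnd1, the member that passed in L-MI rats, had lowest, median and highest levels of 9.35, 9.53 and 9.74 in S-MI rats and 9.38, 9.43 and 9.86 in M-MI rats, and both ranges overlapped that of sham-operated rats. Cdkn1a had log2 fold changes of 0.23 in S-MI and 0.32 in M-MI rats against sham, and neither passed.

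**Figure D4:**
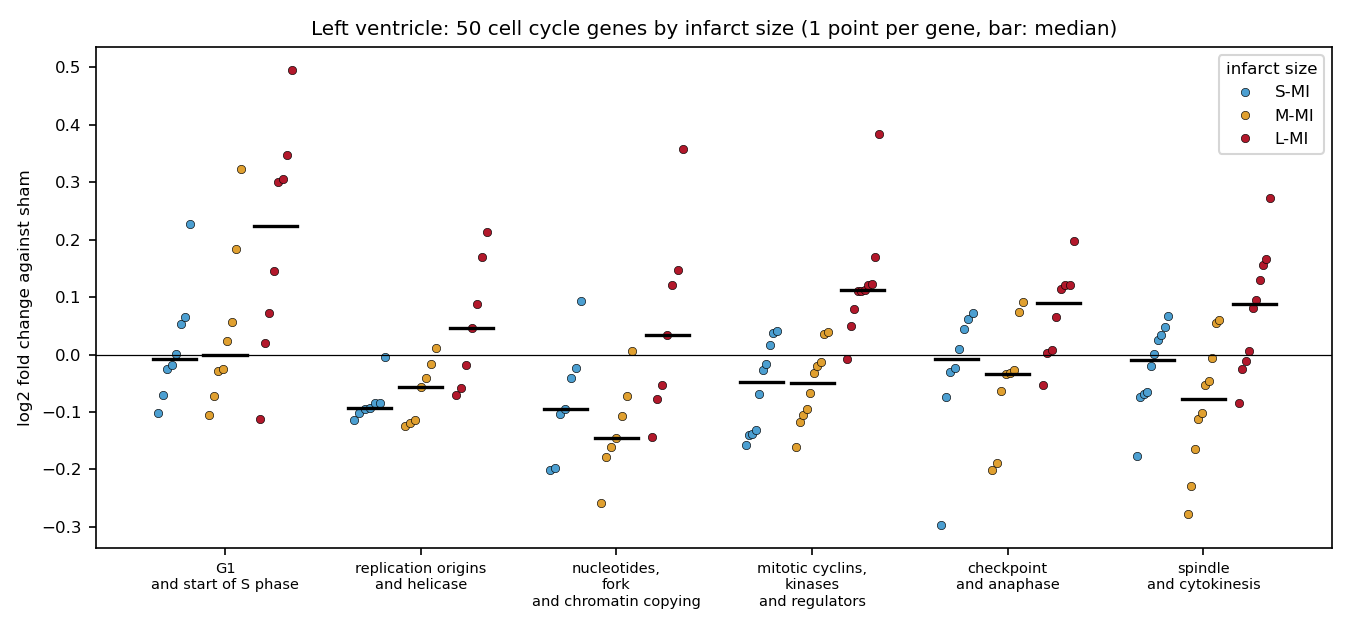
Log2 fold change against sham of the 50 measured members in the LV of S-MI, M-MI and L-MI rats, by role. Each point is a gene and each bar is the median of the group of genes; the 3 sizes share the same 6 sham arrays, and the medians over all members are -0.03, -0.06 and 0.10.

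Set against smaller infarcts, L-MI rats had higher Ccnd1 and Rrm2, and against S-MI rats alone also higher Ccnd2. Against M-MI rats, 2 members were higher, Ccnd1 and Rrm2, and 0 lower, where 1.99% and 0.695% of all clusters were and 2.68% passed in either direction. Of the 50 members, 45 had a higher mean in L-MI rats (45.2% of all clusters) and the median log2 fold change was 0.15. Against S-MI rats, 3 members were higher, Ccnd1, Ccnd2 and Rrm2, and 0 lower, where 1.57% and 0.911% of all clusters were and 2.48% passed in either direction, with 39 of 50 higher means (47.1% of all clusters) and a median of 0.13. Up to an unadjusted p of 0.05 alone, 12 members were higher and 0 lower against M-MI rats (9.88% and 8.99% of all clusters), and 13 higher and 0 lower against S-MI rats (9.19% and 12.1%). Against M-MI rats every member overlapped, while all L-MI rats lay above all M-MI rats in 2.81% of all clusters. Counts of 2 and 3 of 50 members are too small to set the list apart from these shares of all clusters. Both comparisons share the 5 L-MI arrays.

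Ccnd1 had a log2 fold change of 0.44 against M-MI rats and 0.43 against S-MI rats (limma, adjusted p = 0.00449 and 0.00608). Ccnd2 had one of 0.41 against S-MI rats (limma, adjusted p = 0.00638), with levels of 12.12 to 12.40 in L-MI rats and 11.57 to 12.20 in S-MI rats. Rrm2 differed by 0.62 ± 0.17 (SE), or 1.53-fold, against M-MI rats and by 0.56 ± 0.17 (SE), or 1.47-fold, against S-MI rats (limma, adjusted p = 0.0230 and 0.0417). These SEs pool all LV groups and can understate the spread of L-MI rats. The SD of Rrm2 was 0.46 in L-MI, 0.14 in M-MI, 0.31 in S-MI and 0.22 in sham-operated rats. Its mean was 5.89 in M-MI, 5.95 in S-MI and 6.15 in sham-operated rats, and against sham it did not pass. Its lowest, median and highest levels were 5.77, 5.84 and 6.14 in M-MI rats and 5.48, 5.99 and 6.30 in S-MI rats, so that L-MI replicates 1, 2 and 5 lay above both groups, replicate 3 above M-MI rats alone and replicate 4 within both. Its other transcript cluster gave 0.55 in both comparisons (limma, adjusted p = 0.0195 and 0.0202). Rrm2 against M-MI rats did not pass without L-MI replicate 1, 2 or 5 or without M-MI replicate 1 or 6 (log2 fold changes of 0.50, 0.57, 0.55, 0.60 and 0.59). Against S-MI rats, 0 of the 3 genes passed without L-MI replicate 5, when Ccnd1 differed by 0.37 and Ccnd2 by 0.36, and 1, Ccnd1, passed without S-MI replicate 2. Rrm2 against S-MI rats did not pass in 8 of the 23 fits that left out 1 array (L-MI replicates 1, 2 and 5, S-MI replicates 1, 2, 4 and 6 and sham replicate 1, with log2 fold changes of 0.44 to 0.57), nor in a linear model without moderation. Ttk, which had the lowest levels in S-MI rats, was 4.43, 4.45, 4.26, 4.22 and 4.77 in L-MI rats and 3.87, 4.17 and 4.21 in S-MI rats, with no overlap (2.05% of all clusters were higher in this way), and it did not pass (log2 fold change 0.31; limma, adjusted p = 0.0999).

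Cell type markers were set beside these values in the LV, and the lists differed in direction. The 10 cardiomyocyte markers, which check the labelled tissue, had a summed log2 level of 130.3 to 131.2 in L-MI rats and 131.1 to 131.5 in sham-operated rats, with 0 of 10 past the thresholds. On the adjusted p alone, by limma, 3 of 10 were lower in L-MI rats, where 4.91% of all clusters were. Of the 10 markers, 8 had a lower mean (median log2 fold change -0.05). Of 11 macrophage and monocyte markers 10 were higher in L-MI rats (median log2 fold change 0.84, sums of 97.6 to 104.0 in L-MI and 91.7 to 94.5 in sham-operated rats), as were 7 of 10 fibroblast markers (median 0.51, sums of 92.7 to 98.9 in L-MI and 86.5 to 88.1 in sham-operated rats) and 2 of 9 markers of pericytes and smooth muscle. On the adjusted p alone, by limma, 5 of the 9 pericyte and smooth muscle markers were higher and 1 lower, where 4.57% and 4.91% of all clusters were. Of 9 endothelial markers 0 passed, though 8 had a lower mean (median -0.12) and 1 was lower on the adjusted p alone. Of 10 neutrophil and 4 platelet markers 0 passed, and of 11 T cell markers 1 was higher. Of 9 natural killer cell markers 1 was lower and 8 had a lower mean (median -0.20, sums of 60.0 to 63.8 in L-MI and 61.8 to 64.9 in sham-operated rats), and of 8 erythroid markers 1 was lower (median -0.10, sums of 53.9 to 56.4 in L-MI and 56.1 to 57.7 in sham-operated rats). Over L-MI replicates 1 to 5 the mean of the macrophage list was 9.38, 8.87, 9.45, 9.12 and 9.24, and that of the fibroblast list 9.67, 9.27, 9.37, 9.27 and 9.89. The part of these cell types in the levels of the cell cycle genes was not tested.

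Other genes of the same machinery, 137 listed by role and 102 of them measured, gave 0 past both thresholds in L-MI rats against sham. Of the 102, 67 had a higher mean (median log2 fold change 0.06), namely 12 of 19 G1 genes, 18 of 39 replication genes and 37 of 44 genes of G2 and mitosis. On the adjusted p alone, by limma, 6 were higher and 3 lower, where 4.57% and 4.91% of all clusters were. The higher ones were Cdc7, the kinase that fires origins (0.22, adjusted p = 0.0132), E2f7, an E2F that represses (0.23, adjusted p = 0.0209), Cenpa, the histone of the centromere (0.25, adjusted p = 0.0242), Arhgap11a (0.25), Rfc2, a subunit of the clamp loader (0.23), and Cdkn2c, the Cdk4 inhibitor p18 (0.28). The lower ones were Pold2, a subunit of DNA polymerase delta (-0.37, adjusted p = 0.000808), Dut, which clears dUTP (-0.33, adjusted p = 0.00331), and Tfdp2, a partner of the E2Fs (-0.34, adjusted p = 0.0238). Their folds against sham were all under 1.3. Against M-MI rats Cdkn2c passed both thresholds (log2 fold change 0.38; limma, adjusted p = 0.00857).

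Of 20 genes listed as targets of p53, the factor that induces Cdkn1a, 15 were measured. In L-MI against sham-operated rats 2 were higher and 0 lower, where 2.08% and 1.14% of all clusters were. The 2 were Gdf15, a stress-induced secreted factor (0.43 ± 0.10 SE; limma, adjusted p = 0.00723), and Phlda3, an inhibitor of Akt (0.40 ± 0.095 SE; limma, adjusted p = 0.00735). Of the 15 genes, 9 had a higher and 6 a lower mean, with a median of 0.07. At an unadjusted p of at most 0.05 by limma, 2 were higher and 2 lower, against 9.80% and 11.7% of all clusters.

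In PBMCs of L-MI rats, 4 members were higher than in sham-operated rats and 0 lower, and these were genes of chromosome untangling and mitosis: Top2a, Nusap1, Bub1 and Cdkn3. The thresholds here were a fold change from 1.2 up and an unadjusted p up to 0.05, which 0.924% of all clusters passed, 0.486% higher and 0.438% lower. None of the 50 members passed an adjusted test (limma, adjusted p = 0.9997 for each; smallest over all clusters 0.541). Of the 50 members, 43 had a higher mean in L-MI rats, against 47.3% of all clusters, and the median log2 fold change was 0.11, against -0.01 over all clusters. Of the 28 mitotic genes 25 had a higher mean (median 0.13), and the group medians ran from 0.04 for origins and helicase to 0.13 for the spindle. Up to an unadjusted p of 0.05 alone, 8 members were higher and 0 lower, where 1.71% and 2.06% of all clusters were.

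The promoters of these 4 genes are shown with that of Mcm5, a replication gene, so that the sequence elements of the groups can be compared. Each runs from 250 bases before to 50 after the transcription start in RefSeq (rat build GRCr8, 5′ to 3′ on the strand of the gene). Capitals mark matches to 3 motifs searched on both strands, the E2F site TTTNNCGC, the cell cycle gene homology region TTTGAA, an element of mitotic promoters, and the CCAAT box, which binds NF-Y. In Mcm5 the first capital run joins overlapping E2F matches on opposite strands.
Top2a, chr10:84473044-84473343, minus strand: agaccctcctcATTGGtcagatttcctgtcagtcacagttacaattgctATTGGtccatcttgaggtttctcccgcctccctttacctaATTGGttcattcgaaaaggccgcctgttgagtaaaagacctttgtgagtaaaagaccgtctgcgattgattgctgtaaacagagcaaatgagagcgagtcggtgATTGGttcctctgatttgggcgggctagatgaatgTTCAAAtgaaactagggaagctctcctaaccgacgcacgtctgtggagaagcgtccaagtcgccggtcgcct
Nusap1, chr3:127057045-127057344, plus strand: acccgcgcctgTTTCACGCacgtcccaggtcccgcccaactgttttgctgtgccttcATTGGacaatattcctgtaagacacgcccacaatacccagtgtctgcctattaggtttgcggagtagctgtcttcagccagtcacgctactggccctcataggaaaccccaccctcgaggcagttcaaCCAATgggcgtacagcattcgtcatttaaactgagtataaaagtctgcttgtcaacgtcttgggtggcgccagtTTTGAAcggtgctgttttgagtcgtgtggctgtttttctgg
Bub1, chr3:135504872-135505171, minus strand: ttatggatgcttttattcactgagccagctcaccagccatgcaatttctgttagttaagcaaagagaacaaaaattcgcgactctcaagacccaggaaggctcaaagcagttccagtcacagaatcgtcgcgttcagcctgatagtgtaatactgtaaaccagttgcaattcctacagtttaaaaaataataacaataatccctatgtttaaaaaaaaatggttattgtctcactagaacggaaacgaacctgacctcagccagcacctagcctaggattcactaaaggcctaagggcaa
Cdkn3, chr15:22502136-22502435, plus strand: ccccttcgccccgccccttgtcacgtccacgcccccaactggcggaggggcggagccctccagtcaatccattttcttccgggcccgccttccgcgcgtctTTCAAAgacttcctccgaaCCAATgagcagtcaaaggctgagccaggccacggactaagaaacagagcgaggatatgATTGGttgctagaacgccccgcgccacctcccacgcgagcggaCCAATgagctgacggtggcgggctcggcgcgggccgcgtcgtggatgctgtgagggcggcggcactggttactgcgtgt
Mcm5, chr19:13488563-13488862, plus strand: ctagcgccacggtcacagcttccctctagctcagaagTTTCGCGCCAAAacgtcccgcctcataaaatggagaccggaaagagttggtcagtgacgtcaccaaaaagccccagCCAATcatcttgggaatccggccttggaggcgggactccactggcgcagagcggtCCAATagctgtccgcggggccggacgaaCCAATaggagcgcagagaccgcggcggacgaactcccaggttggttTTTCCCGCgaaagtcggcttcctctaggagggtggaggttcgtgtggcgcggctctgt
Top2a, Nusap1 and Cdkn3 each held a TTTGAA match, read on the other strand as TTCAAA in Top2a and Cdkn3, and CCAAT boxes, Nusap1 also held an E2F match, Mcm5 held E2F matches and CCAAT boxes without TTTGAA, and in the window of Bub1 there was no match. Of the 56 listed genes 43 had a promoter in the table, and of the 50 measured genes 38 did (3 had several starts and the first was used). Among these 38, 26.3% held an E2F match, 42.1% TTTGAA and 71.1% CCAAT, against 5.19%, 18.1% and 37.7% of all 27457 promoters. TTTGAA was found in 16 of 25 listed promoters of the 3 mitotic groups and 3 of 18 of the other 3 groups, and the E2F motif in 6 of 7 of origins and helicase. A match is a description of the letters and was not tested as a binding site. Ccnd1, Ccnd2, Rrm2 and E2f1 were among those with no entry.

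Top2a had levels of 7.25, 6.84, 6.56, 6.95 and 6.70 in PBMCs of L-MI replicates 1 to 5, against 6.35, 6.56 and 6.60 (lowest, median and highest) in sham-operated rats. All but L-MI replicate 3 lay above the sham range, and the log2 fold change was 0.34 ± 0.10 (SE), or 1.27-fold (limma, unadjusted p = 0.00584; two-sided exact permutation p = 0.00866). Nusap1 had levels of 6.67, 6.08, 6.16, 6.36 and 6.15 in L-MI rats, against 5.90, 5.99 and 6.12 in sham-operated rats, with L-MI replicate 2 alone within the sham range (log2 fold change 0.29 ± 0.098 SE; limma, unadjusted p = 0.0119). Bub1, the checkpoint kinase at the kinetochore, had 5.28, 4.92, 4.82, 4.92 and 4.91 in L-MI rats, against 4.49, 4.76 and 4.81 in sham-operated rats (log2 fold change 0.27 ± 0.087 SE; limma, unadjusted p = 0.00919). It was the single member without overlap between the groups, a pattern found in 0.113% of all clusters. Cdkn3 had 6.47, 6.21, 5.72, 5.68 and 5.68 in L-MI rats, against 5.38, 5.61 and 5.92 in sham-operated rats (log2 fold change 0.33 ± 0.15 SE; limma, unadjusted p = 0.0479; two-sided exact permutation p = 0.0909). Only L-MI replicates 1 and 2 were above the sham range for Cdkn3.

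**Figure D5:**
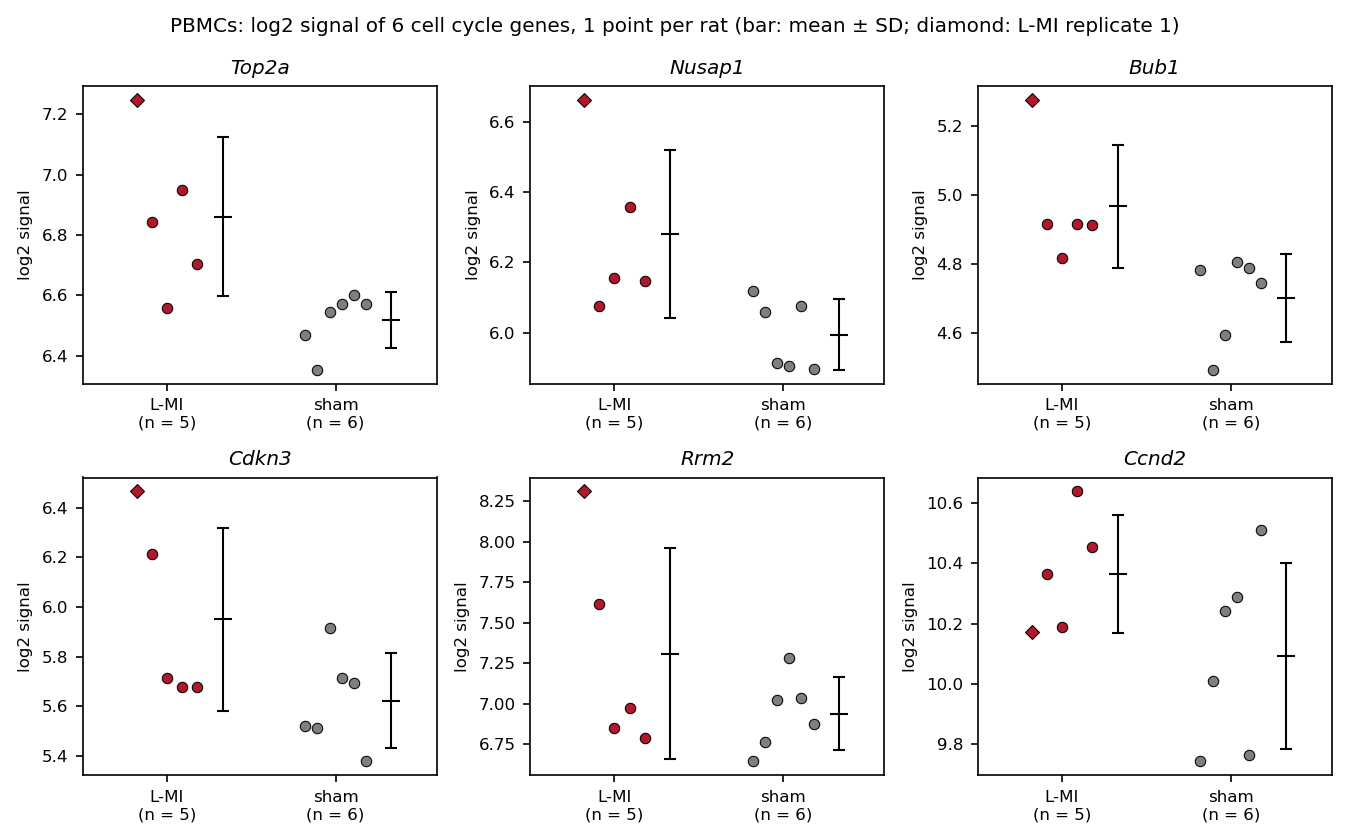
Log2 intensity of Top2a, Nusap1, Bub1, Cdkn3, Rrm2 and Ccnd2 in PBMCs of L-MI (left) and sham-operated rats (right). Each point is a rat, the diamond is L-MI replicate 1 and the bars give the mean and SD (n = 5 and 6); the diamond is the highest L-MI value in 5 of the 6 genes, Ccnd2 being the exception.

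The 4 genes had their highest level in L-MI replicate 1, and without that array 0 of the 4 passed, with log2 fold changes of 0.25 for Top2a, 0.19 for Bub1, 0.19 for Nusap1 and 0.20 for Cdkn3, while 41 of 50 members still had a higher mean and the median was 0.08. L-MI replicate 1 is the array whose deposited record describes compensated injury, against its title and size label. With the dimmest 30% of clusters left out, which took 13 members and among them Bub1 and Cdkn3, Top2a and Nusap1 passed. Of the 11 arrays left out in turn, 7 ended the call of Cdkn3 (L-MI replicates 1 and 2 and sham replicates 1, 2, 4, 5 and 6, with log2 fold changes of 0.20 to 0.35), 3 that of Bub1 (L-MI replicate 1 and sham replicates 2 and 3) and 1 each those of Top2a and Nusap1 (L-MI replicate 1). Cdkn3 also did not pass in a linear model without moderation or after repeated quantile normalisation (0.33 in both). The mean of the 28 mitotic genes was 6.46, 6.35, 6.23, 6.20 and 6.19 in L-MI replicates 1 to 5 and 6.11 to 6.25 in sham-operated rats, so that only replicates 1 and 2 lay above the sham range. Over all 50 members, replicates 1 and 2 held the highest L-MI value for 24 and 18 genes.

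Other members with small p were Tpx2, a spindle assembly factor (log2 fold change 0.25; limma, unadjusted p = 0.0144), Mcm5 (0.14; unadjusted p = 0.0266) and Cdk1, the mitotic kinase (0.15; unadjusted p = 0.0364). Tpx2, at 1.19-fold, was under the fold threshold, with levels of 6.94, 6.82, 6.68, 6.58 and 6.49 in L-MI rats and 6.22, 6.48 and 6.57 (lowest, median and highest) in sham-operated rats. Mcm5 had 7.46, 7.63, 7.50, 7.48 and 7.55 in L-MI rats and 7.27, 7.37 and 7.49 in sham-operated rats. In both genes the groups overlapped. Rrm2 spread most widely, at 8.31, 7.62, 6.85, 6.97 and 6.79 in L-MI rats and 6.65, 6.95 and 7.28 in sham-operated rats, with a log2 fold change of 0.37 ± 0.24 (SE; limma, unadjusted p = 0.147). Ccnd2 (10.17, 10.36, 10.19, 10.64 and 10.45 in L-MI rats and 9.74, 10.12 and 10.51 in sham-operated rats) and Ccnd1 (7.26, 7.42, 7.18, 7.25 and 8.07 in L-MI rats and 7.12, 7.22 and 7.40 in sham-operated rats) had log2 fold changes of 0.27 and 0.20, and neither passed (limma, unadjusted p = 0.0756 and 0.168). Pcna differed by 0.04 (95% interval -0.16 to 0.24) and Cdkn1a by 0.11. Of the 102 other cell cycle genes, 62 had a higher mean in L-MI rats (median 0.02) and Pttg1 (securin) passed (0.39 ± 0.14 SE; limma, unadjusted p = 0.0154).

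Markers of the blood cell types were set beside these values. Of 11 T cell markers 0 passed (sums of 124.9 to 127.1 in L-MI and 124.6 to 126.7 in sham-operated rats), as did 0 of 11 macrophage and monocyte, 0 of 10 neutrophil and 0 of 4 platelet markers. Of 6 B cell markers 1 was lower (median log2 fold change -0.22, sums of 60.7 to 64.3 in L-MI and 62.3 to 65.1 in sham-operated rats), and of 6 plasma cell markers 1 was higher (sums of 47.3 to 53.3 in L-MI and 48.1 to 51.4 in sham-operated rats). Of 9 natural killer cell markers 1 was higher (median 0.04, sums of 88.0 to 98.2 in L-MI and 91.5 to 96.5 in sham-operated rats). Of 8 erythroid markers 0 passed, though all 8 had a higher mean in L-MI rats (median 0.18, sums of 70.7 to 89.0 in L-MI and 70.8 to 83.8 in sham-operated rats). L-MI replicate 1, the rat with the highest mitotic gene levels, had the highest plasma cell sum, 53.3, and the lowest sum of 8 erythroid markers, 70.7. The part of these cells in the levels of the cell cycle genes was not tested.

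The effect of L-MI was also compared between tissues, by an interaction term over 22 arrays that took them as independent, since the sources do not say which LV and PBMC arrays share a rat. None of the 50 members differed at an adjusted p of at most 0.05 (limma), where 2.55% of all clusters did. Up to an unadjusted p of 0.05 alone, 3 members had a lower log2 fold change in LV than in PBMCs and 0 a higher one, against 6.95% and 6.28% of all clusters. The 3 were Nusap1 (LV minus PBMC difference -0.37; limma, adjusted p = 0.329), Tk1 (-0.25; limma, adjusted p = 0.247) and Tyms (-0.26; limma, adjusted p = 0.320). Ccnd1 had log2 fold changes of 0.50 in LV and 0.20 in PBMCs, and Top2a of 0.12 in LV and 0.34 in PBMCs. Among the other cell cycle genes, Pold2 and Dut had lower log2 fold changes in LV than in PBMCs, by differences of -0.43 and -0.37 (limma, adjusted p = 0.0372 and 0.0313).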

How the data were processed

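Per the labels and the study's methods, RNA of the LV (whole in sham-operated rats, the morphologically unaffected part in MI rats) and of PBMCs isolated on Histopaque was hybridised to Affymetrix Rat Gene 1.0 ST arrays, and the authors normalised the scans by RMA in Partek software, versions not given in the sources used here. The deposited values are log2 intensities per transcript cluster and array, with the log base taken as 2. RMA fits each set of arrays together and quantile normalisation forces like distributions within it, so a shift shared by all genes cannot be seen.

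All 29214 transcript clusters were fitted in limma 3.58.1 (R 4.3.3), with 1 mean per group over the 23 LV arrays, over the 11 PBMC arrays, and, for the tissue by group interaction, over 22 arrays at an adjusted p of 0.05. Gene symbols came from the platform annotation (15310 clusters with 1 symbol, 323 with several, which were not named). LV calls took a fold of 1.3 and a Benjamini-Hochberg adjusted p of 0.05, after the study's methods. PBMC calls took a fold of 1.2 and a p of 0.05 from those methods, which name no adjustment for PBMCs, while the title of the study's PBMC list speaks of a false discovery rate. The p was left unadjusted here, and the adjusted result is given beside it. Exact permutation tests over arrays were two-sided, and 5 against 6 arrays allow no p under 0.00216. The 95% intervals are those of limma. No filter on low values was applied.

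Members and lists were chosen with earlier results of these data known, so lists are described by counts and medians without a test. Named with values were every member called, the members with the 6 smallest p in L-MI against sham in each tissue and the 3 smallest in M-MI and in S-MI against sham, the 2 smallest of each role group, and Top2a, Pcna, Ccnd1, Ccnd2 and Cdkn1a. Of the other cell cycle genes and the p53 targets, those called and up to 4 with the smallest p were named, and Arhgap11a, Rfc2, Cenpa and Tfdp2 were added after their values were seen because they passed the adjusted p. The comparison scripts were tested on simulated data with known changes. Alternatives were a linear model without moderation, an intensity trend, array weights, centring, repeated quantile normalisation, leaving out the dimmest 30% of clusters, other call rules, a block for replicate number, and each array left out in turn. Figures were drawn with matplotlib 3.10.9 in Python 3.11.15.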

Additional observations from a re-analysis of the deposited data

Results flagged for a closer look

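Among the named members, 12 of 150 sets of levels (a gene in a group) held a rat whose gap to the nearest other rat took most of the group's range, where chance flags about 1 in 20 sets. In PBMCs these were Bub1 in L-MI replicate 1, at a log2 level of 5.28, and Ccnd1 in L-MI replicate 5, at 8.07. In the LV of L-MI rats they were Ccnd2 and Kif2c, both in replicate 5, at 12.40 and 5.43. In M-MI rats they were Bub1 in replicate 3, at 5.56, and Ccne1 in replicate 2, at 4.66. In S-MI rats they were Ttk in replicate 2, at 3.86, and Tyms in replicate 4, at 8.37. In sham-operated rats they were Ccnd1 in replicate 6, at 9.70, Tk1 in replicate 6, at 5.89, and Mcm6 and Rrm2, both in replicate 3, at 6.10 and 5.71.

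The sham replicate in question is the highest of its group for Ccnd1 and the lowest for Tk1, Mcm6 and Rrm2. Bub1 in PBMCs is one of the genes whose call rests on L-MI replicate 1.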

How the results depend on the processing

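Ccnd1 in the LV of L-MI rats against sham kept its direction and its call under every alternative run, its log2 fold change lying between 0.44 and 0.57 when each array was left out. Against S-MI rats its call was lost without L-MI replicate 5 (0.37). Without the fold threshold, 2 members passed in L-MI against sham. In PBMCs the 4 calls became 1 with array weights, 2 without the dimmest 30% of clusters, 0 with an adjusted p and 8 without the fold threshold. Leaving out each array gave 1 to 2 members called in L-MI against sham (E2f1 joining without L-MI replicate 3, Rrm2 without replicate 4), 0 to 0 in M-MI and in S-MI against sham, 1 to 5 in L-MI against M-MI (5 without L-MI replicate 4), 0 to 4 in L-MI against S-MI, 0 to 6 in PBMCs (6 without L-MI replicate 4) and 0 to 1 in the difference between tissues (Ccnd1 without PBMC L-MI replicate 5). The median log2 fold change of the members then ranged from 0.05 to 0.15 in L-MI against sham, -0.08 to -0.04 in M-MI, -0.08 to -0.01 in S-MI, 0.10 to 0.24 in L-MI against M-MI, 0.07 to 0.19 in L-MI against S-MI, 0.08 to 0.13 in PBMCs and -0.05 to 0.04 in the difference between tissues. Pcna changed sign, from -0.0098 to 0.0888 in L-MI against sham in LV, and from -0.0213 to 0.092 for the same contrast in PBMCs. With each array centred, the median of the members in L-MI against sham was 0.07. Rrm2 in L-MI against S-MI did not pass without moderation (0.56), with centring (0.54) or with repeated quantile normalisation (0.52). The 0 members called in M-MI and in S-MI against sham stayed 0 in the model without moderation and with the intensity trend. Why these values moved was not tested. Whether replicate numbers pair the samples cannot be settled from correlations of their deviations, since low ones do not exclude it. Of L-MI and sham pairs in LV, 0 of 5 deviated together at a correlation over 0.1 (-0.26 to -0.00), as did 0 of 6 M-MI, 2 of 6 S-MI (up to 0.26) and 1 of 5 PBMC pairs. Between LV and PBMCs, 1 of 5 L-MI and 1 of 6 sham pairs did. With a block for replicate number, the members called in the LV were 1 (L-MI), 0 (M-MI) and 0 (S-MI) against sham, and in L-MI rats 3 against M-MI and 2 against S-MI rats, with 4 in PBMCs and 0 between tissues. In PBMCs the block called Ccnd2 (0.35) and no longer Cdkn3 (0.28), and in L-MI against S-MI no longer Rrm2 (0.56). The block gave medians of 0.10, -0.06, -0.03, 0.15, 0.12, 0.10 and 0.01 in the same order. The number of arrays limits what a test of these small differences can show.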
